A study of Homo sapiens with 6 samples.

Results

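The ID genes ID1, ID2, ID3 and ID4 were followed across 6 RNA-seq libraries of Ewing sarcoma cells. They were found by their gene symbols in the deposited expression table, where each has 1 row, so that 4 of 27420 listed genes are described here. The cells were A673 and SKNMC, 2 established Ewing sarcoma lines, each grown in DMEM with fetal bovine serum. Each line gave 3 libraries, taken 6 h after the addition of DMSO (the solvent control), THZ1 at 50 nM or THZ1 at 200 nM. THZ1 is a covalent inhibitor of CDK7, the kinase that phosphorylates the tail of RNA polymerase II as transcription starts, and the study used the lower dose for limited and the higher dose for substantial loss of that phosphorylation. Both lines carry the EWS-FLI1 fusion, and every condition was 1 library of 1 line. There were therefore no replicate cultures, and the values of a line carry no error. What was tested is the change with dose over both lines, with the lines standing in for replicates.

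ID proteins hold a helix-loop-helix domain but lack the basic stretch that contacts DNA. They pair with the E proteins TCF3, TCF4 and TCF12 and thereby keep these from pairing with tissue-restricted basic helix-loop-helix (bHLH) factors at E-box sequences, which is how they are known to hold back differentiation. Their genes are classic early targets of bone morphogenetic protein (BMP) signalling through SMAD1, SMAD5, SMAD9 and SMAD4, and both the messages and the proteins are known to be short-lived.

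The 4 genes are small. In the hg19 coordinates of the deposited table ID1 lies at chr20:30193085-30194318 on the plus strand, ID2 at chr2:8818974-8824583 on the plus strand, ID3 at chr1:23884408-23886285 on the minus strand and ID4 at chr6:19837616-19840915 on the plus strand. All 4 genes thus span under 6 kb, and their canonical transcripts in GENCODE 44 have 2 exons in ID1 and 3 exons in each of the others, against a median of 9 exons over 11759 active protein-coding genes. The ID1, ID2 and ID3 transcripts measure 983, 1299 and 950 nt, and 5.28%, 9.92% and 4.86% of those genes have a shorter one. The ID4 transcript measures 3873 nt, of which 3005 nt are 3′ untranslated, and 58.1% of active genes have a shorter transcript. Each 3′ untranslated region holds the pentamer ATTTA, at 1 place in ID1 and ID3, 3 places in ID2 and 6 places in ID4; 73.5% of active genes have at least 1.

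The coding sequences show where the family is alike, and they are given because the likeness bears on whether reads of these genes could be mixed up. The 90-base window with most bases shared by all 4 genes lies in the first exon of each canonical transcript, within the part that encodes the helix-loop-helix domain. It covers chr20:30193425-30193514 of ID1, chr2:8822440-8822529 of ID2, chr1:23885669-23885758 of ID3 and chr6:19838217-19838306 of ID4 on GRCh37. Capitals mark the 54 bases (60%) that are the same in all 4, and each sequence runs 5′ to 3′ on the strand of its gene.
ID1: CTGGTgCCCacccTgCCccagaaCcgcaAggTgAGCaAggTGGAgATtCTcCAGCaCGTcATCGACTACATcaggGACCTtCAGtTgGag
ID2: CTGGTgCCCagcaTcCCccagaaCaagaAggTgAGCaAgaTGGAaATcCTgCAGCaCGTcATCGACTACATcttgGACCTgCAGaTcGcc
ID3: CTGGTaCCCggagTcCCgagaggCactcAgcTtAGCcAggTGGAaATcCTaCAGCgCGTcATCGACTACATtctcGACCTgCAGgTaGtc
ID4: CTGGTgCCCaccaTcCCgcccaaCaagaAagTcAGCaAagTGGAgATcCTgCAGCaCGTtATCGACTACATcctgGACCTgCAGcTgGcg

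Within this window ID2 and ID4 were the most alike, at 84.4% identity, and ID1 and ID3 the least, at 64.4%. The longest run of bases shared exactly by any pair of whole transcripts was 21 nt, between ID1 and ID2, and in the other pairs it was 13 to 19 nt. The reads were 100 bp long and paired, so that no read placed without mismatches could belong to both members of a pair. Antisense genes are another matter. In GENCODE 44 ID2-AS1 (chr2:8806766-8821994, minus strand) overlaps ID2 and LNC-LBCS (chr6:19323659-19839311, minus strand) overlaps ID4, and whether strand was used in the counting is not given in the sources used here. LNC-LBCS is listed in the deposited table under an older name, RP4-625H18.2, with a shorter span that ends 32.6 kb away from ID4. There its level was 0.26 to 1.45 FPKM in the 6 libraries, far below that of ID4.

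The 30 bases that lie 40 to 11 bases before the RefSeq start of each gene are shown because a TATA box, where a promoter has one, sits there. They are RefSeq sequences on GRCh38.p14, at chr20:31605249-31605278 for ID1, chr2:8682016-8682045 for ID2, chr1:23559512-23559541 for ID3 and chr6:19837330-19837359 for ID4, 5′ to 3′ on the strand of the gene, with the letters TATAA in capitals.
ID1: tggcgtgttTATAAaagacaagctgtggct
ID2: gcgagtgcggataaaagccgccccgccggg
ID3: caggcaggctcTATAAgtgaccgccgcggc
ID4: gcgcacggctcTATAAatacagctgcgcgg

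TATAA was present in this window, on the strand of the gene, in ID1, ID3 and ID4 and in 4.06% of 35116 RefSeq promoters. ID2 held only its last letters ATAA, which all 4 genes held and which 9.25% of promoters did. In the 250 bases before the start, read on both strands, CCAAT stood at 1 place in ID1, 3 in ID2, none in ID3 and 1 in ID4, and it was present in 32% of promoters. GGGCGG stood at 2 places each in ID1 and ID2, at none in ID3 and at 6 in ID4 (42.6% of promoters), and the E-box letters CANNTG at 1 place each in ID2 and ID4 and at none in the others (61.8% of promoters). GGAA, the core of ETS motifs, stood at 1, 4, 3 and 1 places in ID1, ID2, ID3 and ID4 (92.7% of promoters), and GGCGCC at none (16.4% of promoters). Of the 206 active genes of A673 with TATAA in the window 19.4% (50 nM) and 25.2% (200 nM) were decreased at least 2-fold by THZ1, against 15.9% and 25.8% of all active genes with a promoter entry. In SKNMC the shares were 12.3% and 25.5% of 220 genes, against 15.4% and 28.4%.

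All 4 genes were expressed in every library, and none was listed at 0. Levels are in FPKM, fragments per kilobase of transcript scaled to library size, which is a value per length and lets genes be set side by side. A673 with DMSO held 46.5 FPKM of ID1, 139 of ID2, 173.7 of ID3 and 57.1 of ID4. SKNMC with DMSO held 160 FPKM of ID1, 187 of ID2, 308 of ID3 and 58.7 of ID4. ID3 was thus the highest member in both lines, above 96.3% of the active genes of A673 and 98.5% of those of SKNMC, where active means a level above 1 FPKM. ID4 was at almost the same level in both lines, and ID1 was the member that differed most between them.

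**Figure D1:**
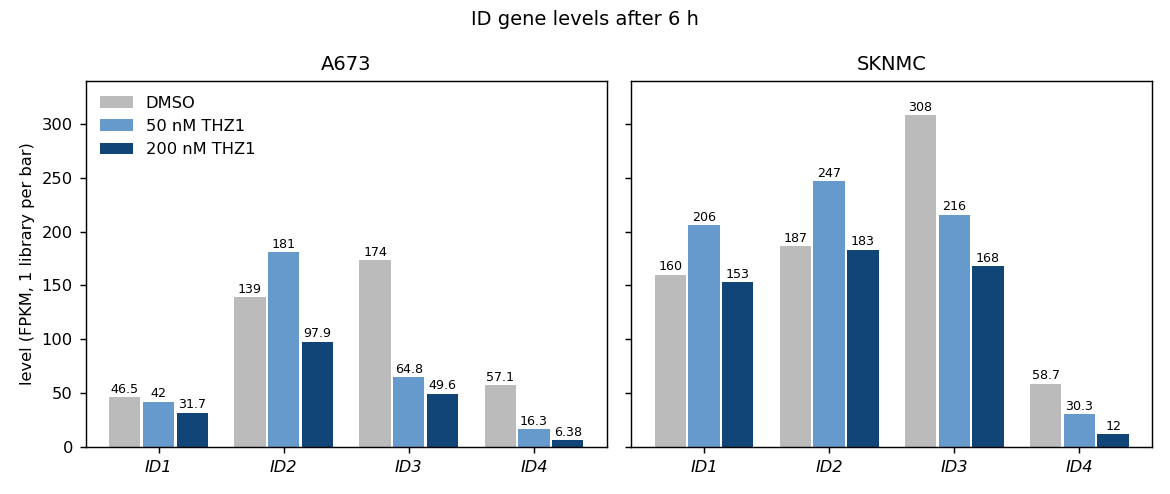
Levels of ID1 to ID4 (y axis, FPKM from 0) in A673 (left) and SKNMC (right) with DMSO, 50 nM and 200 nM THZ1; each bar is 1 library, its value stands above it, and there are no error bars because there are no replicates. ID4 steps down with each dose in both lines, from 57.1 to 6.38 FPKM in A673 and from 58.7 to 12.0 FPKM in SKNMC, while ID2 is highest at 50 nM.

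With THZ1 the family split. In A673 ID4 went from 57.1 FPKM to 16.3 with the lower and 6.38 with the higher dose, and in SKNMC from 58.7 to 30.3 and 12.0. ID3 went from 173.7 to 64.8 and 49.6 FPKM in A673 and from 308 to 216 and 168 in SKNMC. Both genes were therefore lower at each higher dose in each line, and every THZ1 value of ID3 and ID4 lay below the DMSO value of its line. ID2 did not follow this order, at 139, 181 and 97.9 FPKM in A673 and 187, 247 and 183 in SKNMC. ID1 was at 46.5, 42.0 and 31.7 FPKM in A673 and 160, 206 and 153 in SKNMC.

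Changes are given on the scale log2((FPKM + 1) with THZ1 / (FPKM + 1) with DMSO), and a change of at least 2-fold is called decreased or increased. At 50 nM in A673 ID4 changed by -1.75 and ID3 by -1.41, and both were decreased. ID1 changed by -0.14 and ID2 by 0.38. Of the 11077 active genes of A673, 15.9% were decreased and 0.343% were increased at this dose, so that 2 of 4 ID genes stood in the decreased share, and the median change of active genes was -0.27. At the lower threshold of 1.5-fold the same 2 members were decreased, against 31.8% of active genes.

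At 200 nM in A673 ID4 changed by -2.98 and ID3 by -1.79, and ID1 and ID2 changed by -0.54 and -0.50. The decreased members were again ID3 and ID4, among 25.3% of active genes decreased and 0.126% increased, with a median of -0.40. At 1.5-fold they were also the only decreased members, against 41.1% of active genes. ID4 was among the most reduced genes of the line: 0.298% of active genes had a lower value at 200 nM and 2.85% at 50 nM. ID3 had 7.21% and 6.90% of active genes below it.

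In SKNMC ID3 and ID4 changed less than in A673. At 50 nM ID4 changed by -0.93 and ID3 by -0.51, and ID1 and ID2 by 0.36 and 0.40. No member was decreased, against 15.8% of the 11896 active genes, none was increased, against 0.471%, and ID4 alone was decreased at 1.5-fold, against 33.5%. At 200 nM ID4 changed by -2.20, ID3 by -0.87, ID1 by -0.06 and ID2 by -0.03. Here ID4 alone was decreased, against 27.3% of active genes, with 0.462% increased and a median of -0.55, and ID3 and ID4 were decreased at 1.5-fold, against 48% of active genes. At 50 nM 18.1% of active genes lay below ID4 and 37.7% below ID3, which was thus close to the median of active genes (-0.32). At 200 nM 2.24% of active genes lay below ID4, 32.9% below ID3, 77.8% below ID1 and 79.4% below ID2.

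**Figure D2:**
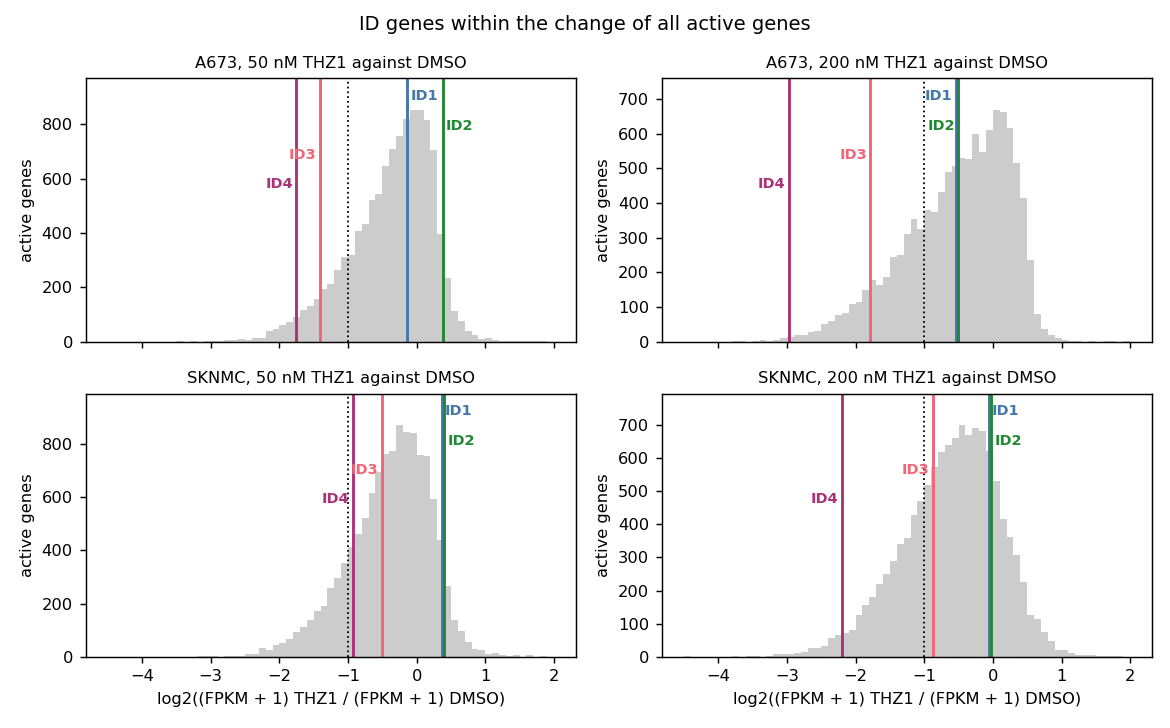
Change of all active genes (grey histogram, number of genes per 0.1 on the log2 scale, values beyond either end placed in the end bins) with the 4 ID genes as coloured lines and the 2-fold threshold dotted, for each line and dose. ID4 lies farthest to the left in all 4 panels, at -1.75, -2.98, -0.93 and -2.20, and ID2 lies right of the middle of the histogram at 50 nM, at 0.38 in A673 and 0.40 in SKNMC.

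ID2 at 50 nM stood near the other end in both lines, with 94.5% of active genes lower in A673 and 94.5% in SKNMC. ID1 did so in SKNMC, with 93.3% of active genes lower, but stood near the middle in A673, with 59.5%. The gain of ID2 was 1.30-fold in FPKM in A673 and 1.32-fold in SKNMC, short of 2-fold. It kept its sign at 50 nM under all 3 other ways of scaling the libraries, but was only 0.13 in A673 and 0.05 in SKNMC when each library was scaled to its ribosomal protein genes. The signs of the small changes of ID1 at 50 nM in A673 and of ID1 and ID2 at 200 nM in SKNMC turned to positive with a scaling to the 75th percentile (0.10, 0.47 and 0.51), so no direction is read from them. ID3 and ID4 kept theirs under every scaling.

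Over both lines together the dose was tested with limma, with line and dose as terms and the 10574 genes active in both lines. This leaves 2 residual degrees of freedom, to which limma adds 9.48 prior degrees of freedom from the spread of all tested genes. Each SE and p-value thus rests mostly on that shared spread, and less on the spread of the gene itself. ID4 was lower at 50 nM by a mean log2 change of -1.34 (SE 0.20, n = 2 lines, limma adjusted p = 0.00027) and at 200 nM of -2.59 (SE 0.20, limma adjusted p = 2.18e-06), and ID3 of -0.96 (SE 0.19, limma adjusted p = 0.0017) and -1.33 (SE 0.19, limma adjusted p = 9.85e-05). Each was lower in 2 of 2 lines, but ID3 by unlike amounts. At 50 nM it changed by -1.41 in A673 and -0.51 in SKNMC, so its p-values do not measure likeness between the lines. Lower calls were common, at 38.5% of genes at 50 nM and 52.7% at 200 nM. ID2 was higher at 50 nM by 0.39 (SE 0.13, limma adjusted p = 0.032), a call that 5.12% of genes shared, but with ribosomal protein scaling it was 0.09 (limma adjusted p = 0.62). ID1 at both doses and ID2 at 200 nM did not pass (limma adjusted p = 0.56, 0.098 and 0.11). The lines are different cells and not repeats of a culture, and a difference between the lines in their response to THZ1 could not be tested.

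Genes of like level or span give a narrower background. Of the active genes with 40 to 320 FPKM in DMSO, a band that holds all 4 members, 6.18% and 12% were decreased in A673 at 50 and 200 nM and 6.39% and 17% in SKNMC. Of the active genes that span under 6 kb, 23% and 27.8% were decreased in A673 and 22.2% and 27.7% in SKNMC. Genes in both bands gave 11.8% and 16% of 288 in A673 and 10.1% and 18.5% of 298 in SKNMC.

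The step from 50 to 200 nM is the difference between the 2 changes against DMSO of a line. It is another view of the same values and not separate evidence. Its limma test takes its spread from all 6 libraries, DMSO included. ID4 changed from 50 to 200 nM by -1.22 on the log2 scale in A673 and by -1.27 in SKNMC, and it was the 1 member decreased at least 2-fold, against 7.97% of active genes in A673 and 9.09% in SKNMC. The size of this step was thus much the same in both lines, and the gap between the lines was already there at 50 nM. ID3 changed between the doses by -0.38 in A673 and -0.36 in SKNMC, so that most of its loss in A673 was already present at 50 nM. ID1 changed by -0.40 and -0.43. ID2 changed by -0.88 in A673 and -0.43 in SKNMC. Over both lines the step passed for ID4 (-1.25, SE 0.20, limma adjusted p = 0.00088) and ID2 (-0.66, SE 0.13, limma adjusted p = 0.0036) and not for ID1 and ID3 (limma adjusted p = 0.057 and 0.17), with 23.2% of genes lower. All 8 steps were below 0, and they stayed so under every scaling. The median step of all active genes was also below 0 as deposited, at -0.02 in A673 and -0.16 in SKNMC, so a step below 0 was common. With the 75th percentile that median was 0.07 and 0.06.

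The lines differed most in ID1. With DMSO its level was 3.44-fold higher in SKNMC than in A673, a log2 difference (A673 minus SKNMC) of -1.76, and it was the 1 member that differed at least 2-fold; 15% of genes active in either line were higher in SKNMC by that much. ID3 differed by -0.82, ID2 by -0.42 and ID4 by -0.04 with DMSO; under the scaling to ribosomal protein genes the differences of ID2 and ID4 turned to 0.12 and 0.49. At 50 nM ID1 differed by -2.27 and ID3 by -1.72, and at 200 nM by -2.24 and -1.74, and these were the members higher in SKNMC at least 2-fold, against 14.1% and 13.1% of active genes. ID4, level between the lines with DMSO, differed by -0.86 and -0.82 at these doses.

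The order of the members by level was not the same with and without THZ1. With DMSO it was ID3, ID2, ID4, ID1 in A673 and ID3, ID2, ID1, ID4 in SKNMC, from high to low. In all 4 THZ1 libraries it was ID2, ID3, ID1, ID4. Some neighbours in these orders were close, such as ID3 and ID1 at 216 and 206 FPKM in SKNMC at 50 nM, and without replicates it cannot be said which of them differ. The ratio of ID2 to ID4, which no scaling of a library can change, went from 2.44 to 11.1 and 15.3 in A673 and from 3.18 to 8.14 and 15.3 in SKNMC.

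Summed over the family, the ID level was 416, 304 and 186 FPKM in A673 at DMSO, 50 and 200 nM, which leaves 73.1% and 44.6% of the DMSO sum. In SKNMC it was 714, 699.6 and 516 FPKM, or 98% and 72.4%. The direction in SKNMC depended on the scaling: with the 75th percentile the sum was 118.6% and 105.02% of DMSO, while A673 stayed below its DMSO sum under every scaling. At 50 nM in SKNMC lower ID3 and ID4 thus stood beside higher ID1 and ID2. ID3 and ID4 together, a grouping chosen after their values were seen, were 55.4% of the sum in A673 with DMSO and 26.6% and 30.1% with THZ1, and 51.4%, 35.2% and 34.8% in SKNMC. How much ID protein these messages gave was not measured.

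The partners and the BMP pathway are described by the same 2-fold calls in each line, to be read against the background, which in A673 was 15.9% of active genes decreased with the lower dose and 25.3% with the higher, and in SKNMC 15.8% and 27.3%. Several of these counts were lower with a scaling to the 75th percentile, and this is said where it ends a call.

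The E proteins are the main partners that ID proteins bind. TCF12, a broadly expressed E protein, was at 171, 141 and 93.5 FPKM in A673 and 80.6, 75.5 and 50.6 in SKNMC at DMSO, 50 and 200 nM. TCF3 was at 102, 77.3 and 83.2 FPKM in A673 and 66.8, 50.8 and 66.8 in SKNMC, and TCF4 at 26.9, 25.03 and 13.5 in A673 and 36.3, 27.1 and 20.2 in SKNMC. None of the 3 was decreased at least 2-fold in any comparison. With ribosomal protein scaling 2 were decreased at 200 nM in each line, and at 1.5-fold TCF4 and TCF12 were. Their sum was 300.4, 243 and 190.1 FPKM in A673 and 184, 153 and 138 in SKNMC. The ratio of the ID sum to the E protein sum was therefore 1.39, 1.25 and 0.976 in A673, and 3.88, 4.56 and 3.75 in SKNMC, higher in SKNMC at each dose. This is a ratio of messages and does not depend on the scaling of the libraries.

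**Figure D3:**
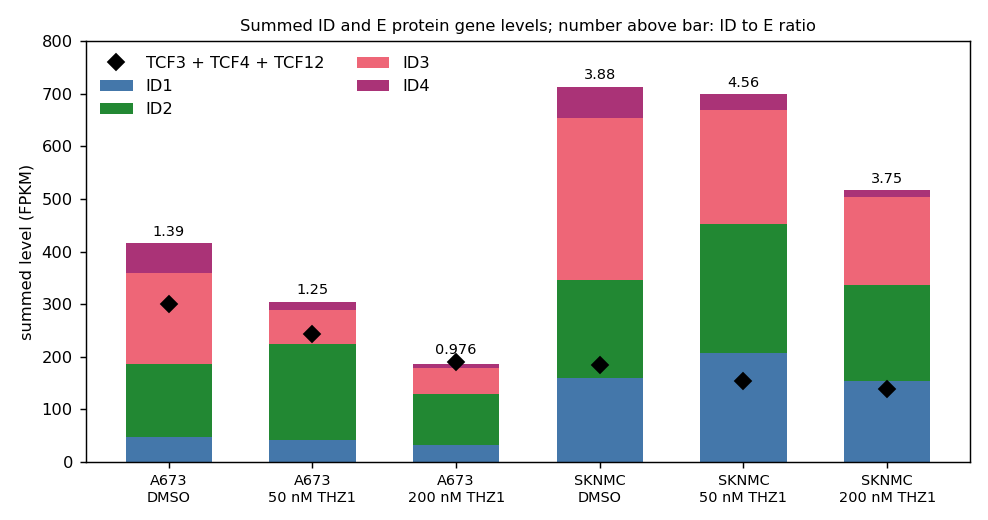
Summed levels (y axis, FPKM from 0) of ID1 to ID4 as stacked bars, 1 library per bar, with the sum of TCF3, TCF4 and TCF12 as diamonds and the ratio of both sums above each bar. The ratio lies between 0.976 and 1.39 in A673 and between 3.75 and 4.56 in SKNMC.

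The tissue-restricted bHLH factors, which pair with E proteins to bind DNA, were mostly silent: 5 of 44 listed were active in A673 and 6 in SKNMC. All 5 were decreased in A673 at both doses (background 15.9% and 25.3%), with a median of -1.43 at 50 nM and -2.07 at 200 nM, against medians of -0.27 and -0.40 over all active genes. MSC, a repressor of muscle genes, was the highest in A673, at 43.2 FPKM with DMSO and 9.85 and 4.16 with THZ1, and it was at 0.28 FPKM or less in SKNMC. TWIST1, a regulator of mesenchymal cells, was at 24.2, 8.68 and 3.90 FPKM in A673 and at 115, 43.8 and 26.4 in SKNMC. HAND2, a factor of heart, limb and sympathetic neurons, changed by -1.46 and -1.72 in A673 and by -1.27 and -1.19 in SKNMC, and BHLHE22, a neuronal factor, was at 7.25, 2.05 and 0.96 FPKM and at 11.2, 5.08 and 3.43. In SKNMC 4 of 6 were decreased at each dose (TWIST1, HAND2, BHLHE22 and MESP1), and ATOH8 (-0.16 and -0.87) and HAND1 (-0.03 and -0.62) were not. With the 75th percentile the counts at 50 and 200 nM were 4 and 5 of 5 in A673 and 3 and 2 of 6 in SKNMC.

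Among the BMP ligands GDF6 was the only gene of 14 active in both lines. It was at 80.5, 18.2 and 8.57 FPKM in A673 and at 41.8, 3.88 and 3.77 in SKNMC, log2 changes of -2.09 and -3.09 and of -3.13 and -3.16, and was thus past 2-fold in every comparison. BMP2 was active in SKNMC only, at 13.8 FPKM with DMSO and 3.62 and 0.57 with THZ1. BMP6 changed by -0.86 and -0.38 and BMP5 by -0.28 and -0.19 in that line.

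The receptors come next in the pathway. At 50 nM none of 6 active receptor genes in A673 and none of 7 in SKNMC was decreased, and their medians, 0.05 and 0.28, lay above those of all active genes. ACVR2A, a type II receptor, was at 4.86 FPKM with DMSO and 8.81 at 50 nM in SKNMC. At 200 nM 2 were decreased in each line: BMPR1A, a type I receptor, with -1.43 in A673 and -1.05 in SKNMC, and RGMB, a co-receptor, with -1.42 and -1.16. These 2 of 6 and 2 of 7 were near the background of 25.3% and 27.3%, and with the 75th percentile none was decreased in SKNMC. BMPR2, the main type II receptor, changed by -0.06 and -0.69 in A673 and by -0.19 and -0.36 in SKNMC.

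SMAD proteins carry the BMP signal to the promoters of its target genes. At 50 nM 1 of 4 was decreased in each line, SMAD1 in A673 (-1.05) and SMAD9 in SKNMC (-1.14), against 15.9% and 15.8% of active genes, and none was with the 75th percentile. At 200 nM 4 of 4 were decreased in A673 and 3 of 4 in SKNMC, with medians of -1.68 and -1.33 against a background of 25.3% and 27.3% decreased. The 75th percentile left 3 of 4 and 2 of 4. SMAD4, the shared partner, was at 52.5, 38.6 and 12.2 FPKM in A673 and at 47.4, 41.2 and 15.5 in SKNMC. SMAD1 was at 15.2, 6.81 and 2.21 FPKM and at 19.1, 11.8 and 4.80. SMAD5 changed by -0.02 and -1.31 in A673 and by 0.12 and -0.81 in SKNMC.

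The inhibitors of the pathway were mixed. SMAD6, an inhibitory SMAD, was decreased in all 4 comparisons, from 54.3 to 24.2 and 16.8 FPKM in A673 and from 21.5 to 8.60 and 9.45 in SKNMC. SMAD7, the other inhibitory SMAD, went the other way in SKNMC, at 11.3, 24.1 and 18.6 FPKM. Its 1.02 there at 50 nM was the 1 increase of at least 2-fold among all lists, and it was only just past the threshold. Scaling to ribosomal protein genes shifted the median change of this comparison by -0.25, more than the margin of this call. In A673 SMAD7 was at 10.4, 13.0 and 11.7 FPKM. These changes of 0.29 and 0.16 were about as small as the shifts between scalings, so no direction is read from them. BAMBI, a decoy receptor, was decreased at 200 nM but not at 50 nM, with -2.72 in A673 and -2.24 in SKNMC, as was SMURF2, a ubiquitin ligase for SMADs, with -1.59 and -1.32. NOG, the gene of the secreted antagonist noggin, was decreased in A673, at 3.47, 1.23 and 0.62 FPKM, but was at 1.53, 1.55 and 0.82 FPKM in SKNMC. In all, 2 and 4 of 11 active inhibitors were decreased in A673 and 1 and 3 of 11 in SKNMC, beside backgrounds of 15.9%, 25.3%, 15.8% and 27.3%. With the 75th percentile no inhibitor was decreased at 50 nM in either line, SMAD6 included, and 4 and 1 were at 200 nM. FSTL3, TWSG1, NBL1, CER1, SMURF1 and CHRDL1 or CHRDL2, where active, stayed under 2-fold in every comparison on the log2 scale with 1 FPKM added. CER1 at 50 nM in SKNMC was at -0.87 on that scale, but its FPKM alone, from 3.56 to 1.49, was past 2-fold.

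Other genes that BMP signals are known to induce include MSX1 and MSX2, homeobox genes of limb and skull. MSX1 was at 7.20, 4.26 and 2.07 FPKM in A673 and 64.8, 44.02 and 21.03 in SKNMC, and MSX2, active in SKNMC only, at 35.5, 21.7 and 11.2. Together with SMAD6, SMAD7, BAMBI and ATOH8, which also stand in the lists above, and HEY1, 2 and 4 of 6 active genes of this kind were decreased in A673 and 1 and 4 of 7 in SKNMC (background 15.9%, 25.3%, 15.8% and 27.3%). With the 75th percentile these counts were 0 and 4, and 0 and 3. Their medians at 200 nM were -1.52 in A673 and -1.11 in SKNMC. ID1 and ID2, with -0.54 and -0.50 in A673 and -0.06 and -0.03 in SKNMC, lay above these medians, and ID4 lay below them. ID3 lay below in A673 (-1.79) and above in SKNMC (-0.87).

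**Figure D4:**
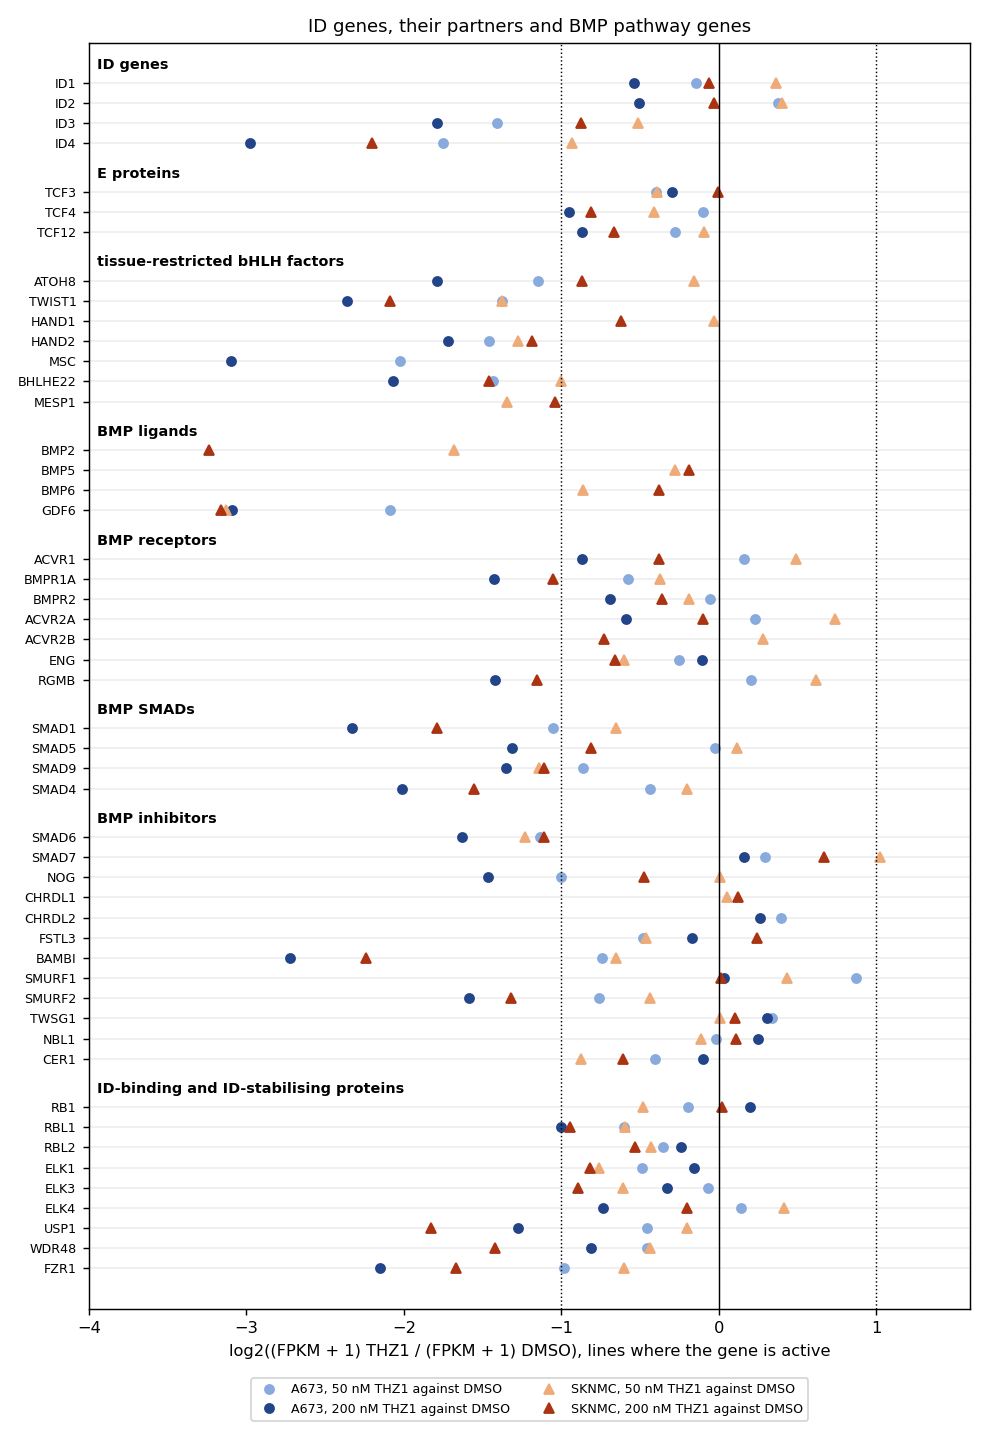
Change with THZ1 (x axis, log2 scale; dotted lines at 2-fold) of the ID genes, the E proteins, the tissue-restricted bHLH factors, the BMP pathway and the proteins that bind or stabilise ID proteins, with A673 as circles, SKNMC as triangles and 200 nM in the darker shade; a point is 1 library against its DMSO library and is drawn where the gene is active. The E proteins stay right of -1 in all comparisons, and GDF6 reaches -3.09 in A673 and -3.16 in SKNMC.

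Of 9 genes whose products bind ID proteins or control their breakdown, all were active in both lines. None was decreased at 50 nM, against 15.9% and 15.8% of active genes, and with ribosomal protein scaling 1 was in each line. FZR1 in A673 was just short of the call at 50 nM, with -0.98, and its FPKM alone, from 24.2 to 11.8, was past 2-fold. At 200 nM 2 of 9 were decreased in A673 and 3 of 9 in SKNMC, near the background of 25.3% and 27.3% of active genes. These counts were 1 and 2 with the 75th percentile and 5 and 6 with ribosomal protein scaling. USP1, the deubiquitinase known to protect ID proteins from breakdown, was at this dose decreased with -1.28 in A673 and -1.83 in SKNMC, and FZR1, an activator of the ubiquitin ligase that marks ID proteins, with -2.15 and -1.67. WDR48, the cofactor of USP1, was decreased in SKNMC (-1.42) and at -0.81 in A673. The calls lost with the 75th percentile were those nearest the threshold, USP1 in A673 and WDR48 in SKNMC. RB1, the retinoblastoma protein that ID2 binds, was at 29.6, 25.7 and 34.2 FPKM in A673 and 31.6, 22.3 and 32.1 in SKNMC. The others were RBL1, RBL2, ELK1, ELK3 and ELK4, which stayed under 2-fold on the log2 scale with 1 FPKM added, without rescaling. RBL1 was just short of it at 200 nM, with -0.998 in A673 and -0.94 in SKNMC. Its FPKM alone, from 9.73 to 4.37 in A673 and from 9.19 to 4.29 in SKNMC, was past 2-fold. Of the CDK inhibitor genes that ID proteins are known to restrain, CDKN1A was at 11.5, 10.8 and 7.18 FPKM in A673 and 5.16, 2.89 and 0.89 in SKNMC. CDKN2A was at 127, 143 and 168 FPKM in SKNMC and at 0.46 FPKM or less in A673, and CDKN2B was active in neither line.

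The genes whose 4 changes were most like those of each member were sought among 5986 genes with at least 10 FPKM in both DMSO libraries, by the Euclidean distance over the 4 log2 values; the 2 doses of a line share their DMSO library. Nearest to ID4 were POU3F1 (0.30), RRS1 (0.36) and EBF3 (0.44), and POU3F1, a POU-domain transcription factor, went from 49.8 to 16.4 and 6.04 FPKM in A673 and from 43.5 to 25.3 and 8.89 in SKNMC. Nearest to ID3 were RPUSD4 (0.29), C1orf52 (0.30) and CCNA2 (0.35), the gene of cyclin A. Nearest to ID2 were C12orf49 (0.076), MAPKAPK5-AS1 (0.16) and ZBTB1 (0.18), and nearest to ID1 were MKLN1 (0.13), SNX8 (0.15) and GOLIM4 (0.19). Between members the distance was 0.52 for ID1 and ID2, 1.86 for ID3 and ID4 and 4.14 for ID2 and ID4. ID2 and ID4, the pair most alike in the coding window printed above, were thus farthest apart in change, and ID4 was at place 5855 in likeness to ID2. The other pairs did not run the same way. ID1 and ID2, next most alike in that window at 81.1%, were the closest in change. ID1 and ID3, the least alike there, lay between at 2.14. A link between the 2 measures was not tested.

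The libraries set limits on these values. Their summed FPKM was 97.8% to 100.5% of that of the DMSO library of the line, so a loss of RNA shared by all genes would not show, and fewer cells and less RNA per cell cannot be told apart. The share of FPKM in 77 ribosomal protein genes was 13.6%, 16.1% and 17.7% in A673 and 19%, 24.7% and 29.7% in SKNMC at DMSO, 50 and 200 nM; its part in the changes above was not tested beyond the scalings given. All 11 Ewing sarcoma markers examined, among them NKX2-2, NR0B1, STEAP1 and CD99, were active in both lines. Of 7 listed markers of other cell types 1 was above 1 FPKM in each line, CD68 in A673 (2.16 to 3.61) and PTPRC in SKNMC (7.90 to 13.1). Both are markers of immune cells, and CD3E, a further immune marker, was listed at 0 throughout. The highest of the remaining endothelial, epithelial and liver markers was at 0.83 FPKM. The part of these in the ID values was not tested.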

How the data were processed

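RNA was measured in 6 libraries, 1 for each of 3 conditions in 2 cell lines. Per the paper's methods the authors sequenced 100-bp paired reads, mapped them with STAR onto hg19 (genes of Ensembl 75) and estimated FPKM with StringTie; the submitters' processing notes list STAR and Cufflinks. The deposited FPKM values were used as they stand. The 4 deposited log2 fold change columns hold the authors' own comparisons and were not used. Samples were grouped by their labels. Averages are named in the title of the table, but each condition has 1 library in the labels.

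Log2 values were computed with a pseudocount of 1 FPKM, which understates the change of low genes. Active genes had more than 1 FPKM in the DMSO library (at 50 nM for the dose step, in either library for the line difference); the change threshold was 2-fold, with 1.5-fold as an alternative. FPKM holds no counts: under 0.6% of low values shared a common step between libraries, so depth is unknown and no interval for counting error can be given. Other choices were a pseudocount of 0.1, 3 scalings and other backgrounds. The named genes are the 4 members, the active members of the lists, and for each member the 3 genes nearest in change. The members and lists were chosen with earlier results of these data known. Where a symbol had 2 rows (RBL1) the row of the higher mean was used; PECAM1 and SCX matched no row. Features, transcripts and coordinates came from GENCODE 44 on GRCh37, and promoter windows from RefSeq on GRCh38.p14, by gene symbol (4 of 4 matched). The code was checked on simulated data and run with Python 3.11.15, pandas 2.3.3, numpy 2.4.6 and limma 3.58.1 in R 4.3.3. The limma fit on log2 values (line and dose as terms, variance moderated over genes with a trend, Benjamini-Hochberg adjustment, threshold 0.05) was added after seeing the data.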

Additional observations from a re-analysis of the deposited data

Results flagged for a closer look

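Values of opposite sign at the 2 doses in both lines, or in the 2 lines at both doses, were noted for 8 genes; none of these differences was tested within a line, and the first kind was common: 733 of 10574 genes active in both lines (6.93%) were higher than DMSO at 50 nM and lower at 200 nM in both. ID2 was of this kind, with a log2 change of 0.38 at 50 nM in A673 against -0.50 at 200 nM, and 0.40 against -0.03 in SKNMC; the last value turned positive with the 75th percentile (0.51) and the common sum (0.01), and over both lines ID2 at 200 nM did not pass the test. So were the BMP receptor genes ACVR1 (0.16 in A673 at 50 nM), ACVR2A (0.23) and RGMB (0.21) and the ID partner ELK4 (0.14). NBL1 (-0.02) and RB1 (-0.19) were lower at 50 nM and higher at 200 nM in both lines as deposited. RB1 at 200 nM in SKNMC was only 0.02. The values printed here for ACVR1, ACVR2A, RGMB, ELK4, NBL1 and RB1 were about as small as the shifts between scalings, so no direction is read from them. HEY1 had opposite signs in the 2 lines instead, with -0.21 in A673 and 0.21 in SKNMC at 50 nM and -0.21 and 0.01 at 200 nM. Its levels of 1.06 to 2.49 FPKM were close to the threshold of activity, so no line difference is read from them. In all, 93 genes (0.88%) were lower in A673 and higher in SKNMC at both doses.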

How the results depend on the processing

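Pairs exist only between a line's own libraries, and the limma fit over both lines holds line as a term; without either line it has no residual degrees of freedom, and the values of the other line alone stand in the report. In that fit 88.3%, 89.7% and 87.3% of calls were lower at 50 nM, 200 nM and between doses, against 60.2%, 58.7% and 53.6% with the 75th percentile and 98.3%, 99.6% and 97.5% with ribosomal protein scaling. With the 75th percentile ID1 and ID2 at 200 nM turned to 0.14 and 0.17, neither past the threshold. With ribosomal protein scaling ID1 at 50 nM turned to -0.18 and ID2 at 50 nM moved to 0.092, neither past it, while ID1 and ID2 at 200 nM (-0.79 and -0.76) and ID1 and ID3 between doses (-0.60 and -0.57) passed it; ID3 and ID4 against DMSO passed it under each scaling. Scaling to the 75th percentile shifted the median change of active genes by 0.21 to 0.45 towards higher values for THZ1 against DMSO, and scaling to the ribosomal protein genes by 0.21 to 0.39 towards lower values, so changes are best read against those medians; for A673 minus SKNMC the ribosomal protein scaling shifted the median by 0.48 to 0.56. A pseudocount of 0.1 and a common sum moved no member's value by 1.5-fold. With ribosomal protein scaling the ID sum at 200 nM in SKNMC was 48.1% of DMSO (105.02% with the 75th percentile), 1 member was decreased in SKNMC at 50 nM, 2 at 200 nM and 2 between doses in A673. The line differences then became -1.63 (ID1), 0.19 (ID2), -1.08 (ID3) and -0.25 (ID4) at 50 nM and -1.51, -0.18, -1.02 and -0.16 at 200 nM. With the 75th percentile 4 members were at least 2-fold higher in SKNMC at 200 nM. At 1.5-fold 1 member was decreased in SKNMC at 50 nM, 2 at 200 nM and 2 between doses in A673, and 2 (DMSO) and 4 (200 nM) were higher in SKNMC. Of 44 list counts, 19 moved by over 1.5 times at 1.5-fold, 12 with the 75th percentile and 9 with ribosomal protein scaling. A background of all listed genes, silent ones included, moved all 9 background shares, and a background of genes with at least 10 FPKM moved none. The cause of these moves was not tested. Unknown depth limits most the low values, such as ID4 at 200 nM.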

Other observations

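The genes that neighbour the ID genes within 50 kb did not all share their changes. E2F2, a cell cycle transcription factor gene 26.7 kb from ID3, changed by -0.71 and -1.70 in A673 and by -0.98 and -2.27 in SKNMC at 50 and 200 nM, while ID3 changed by -1.41 and -1.79 and by -0.51 and -0.87. HM13, 35.7 kb from ID1, changed by -0.23 and 0.07 in A673 and by -0.57 and -0.36 in SKNMC. KIDINS220, 40.8 kb from ID2, changed by 0.22 and 0.16 in A673 and by 0.27 and 0.00 in SKNMC. COX4I2 near ID1 was listed at 0 in all libraries, and the neighbouring lincRNA genes of ID2, ID3 and ID4 and MDS2 stayed under 1.5 FPKM. None of these values was tested.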
